A study of Homo sapiens with 27 samples.

Results

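The change between day 2 and day 22 in cultures on laminin 323 (LN323) was described across all genes in 6 bulk RNA-seq libraries, taken by their labels from the 27 libraries of the series. The cells were H1, an established human embryonic stem cell line, with one range of passages given for all groups. The 3 libraries of day 2 came from undifferentiated cells before neural induction, and the 3 of day 22 from cells labelled as photoreceptor progenitors. The cells were in NutriStem, a stem cell medium, until day 2, so the medium differs with the day. From then on they had media with B27 without vitamin A and N2: a neural induction medium with SB431542, which blocks NODAL and activin receptors, and CKI-7, which blocks casein kinase 1, came first, and a photoreceptor medium with BDNF, CNTF, retinoic acid, and DAPT, an inhibitor of the gamma-secretase that activates Notch, followed. LN323 joins laminin chains alpha 3 and beta 2 with gamma 3, and was made by a clone of HEK293 cells. The sources differ on the coating: the sample labels give laminin 323, the study's methods give LN323 mixed with LN521, and the design text gives another pairing of the 3 coatings, so LN323, LN523, and LN521 name the labelled groups here. Each sample's replicate number equals its sequencing lane, and no source says that replicates were separate cultures, so p-values measure the spread between these samples, which may be technical.

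Human embryonic stem cells keep their state through a network around OCT4 (POU5F1), NANOG, and SOX2. Retinal development starts in the anterior neural plate, where PAX6, RAX, SIX6, LHX2, and OTX2 mark the eye field, and the optic vesicle then divides into neural retina and MITF-positive pigment epithelium. Photoreceptor precursors leave the cell cycle, switch on OTX2 and CRX, and become rods under NRL or cones with RXRG and THRB. Release from Notch signaling is known to favor this exit.

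Total counts ranged from 25620624 to 47195638 per library, and levels are given as CPM, counts per 1e+06 counts of the library, after TMM scaling, in the order of replicates 1, 2, and 3. Replicate 2 stood apart within both days. Its log2 CPM correlated with those of the other two at 0.970 to 0.976 at day 2 and 0.937 to 0.956 at day 22, while replicates 1 and 3 correlated at 0.988 and 0.977. Values without a library are given where leaving it out ended a call. For genes near 0 on one of the days, the log2 fold change depends on few counts: of the 165 called genes among the 183 chosen for naming, 64 moved by over 1.5 times when a library was left out, and 52 of these had a mean under 1 CPM on one day. In bulk RNA, fewer cells of a type and less RNA per cell cannot be told apart.

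By the quasi-likelihood test of edgeR with Benjamini-Hochberg adjustment over 44852 genes, 10192 genes (22.7%) passed an adjusted p of 0.05. Of these, 5285 (11.8%) were higher and 4907 (10.9%) were lower at day 22. A change of at least 2-fold was present for 4394 of the higher genes (9.8% of genes tested) and 3710 of the lower ones (8.27%). The median log2 fold change was 0.02 over all genes and 1.87 in absolute size over the called genes. Of 18417 protein-coding genes, 4157 (22.6%) were called higher and 4125 (22.4%) lower. These include genes with few or no counts, which can hardly be called. A list of mostly expressed genes can exceed these shares for that reason alone. Counts of members called in the gene lists below are to be read beside these shares. All day 22 libraries lay above all day 2 libraries for 7155 of the 44852 genes, and below them for 7309. Statements below that the days did not overlap are to be read beside these numbers. Among 11309 lncRNA genes, 740 were higher and 434 lower. Counts of 0 in all 3 day 2 libraries with a mean of at least 1 CPM at day 22 were found for 92 genes, 50 of them protein-coding, and the reverse for 95 genes, 52 of them protein-coding.

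Genes of the undifferentiated state fell together. Of 24 genes in the pluripotency list, 23 were lower at day 22 and none higher, against 22.4% of protein-coding genes lower, and the median log2 fold change of the list was -7.33. POU5F1 read 2335, 2213 and 2438 CPM at day 2 and 2.13, 0.865 and 1.31 CPM at day 22 (log2 fold change -10.84 ± 0.85 (SE), adjusted p = 4.5e-15). NANOG fell from 201, 138 and 203 CPM to 0.304, 0 and 0.0703 CPM (log2 fold change -10.97 ± 0.99 (SE), adjusted p = 4.3e-13). The day 22 values of both genes lay far below every day 2 library. Both have close copies: 42.7% of the POU5F1 transcript matched POU5F1B or POU5F1P4 at 95% identity or more, and 36.3% of the NANOG transcript matched NANOGP8 or NANOGP1. The NANOG copy NANOGP8 read 8.47, 7.74 and 9.61 CPM at day 2 and 0, 0 and 0 CPM at day 22 (at least 322-fold lower). Its whole transcript was matched in NANOG or NANOGP1, so its counts may be reads of NANOG.

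The de novo DNA methyltransferase DNMT3B read 5094, 4139.9 and 4806 CPM at day 2 and 47.1, 73.1 and 59.2 CPM at day 22 (log2 fold change -6.26 ± 0.34 (SE), adjusted p = 3.6e-21). DPPA4, a chromatin factor of pluripotent cells, went from 965, 812 and 894 CPM to 2.47, 0.455 and 0.562 CPM (log2 fold change -9.94 ± 0.75 (SE), adjusted p = 1.1e-15). L1TD1, an RNA-binding protein of these cells, went from 1214, 645 and 1339 CPM to 3.73, 10 and 5.98 CPM (log2 fold change -7.45 ± 0.59 (SE), adjusted p = 7.2e-15), its day 2 level being lowest in replicate 2. TDGF1, the NODAL co-receptor, read 523, 792 and 599 CPM at day 2 and 0.799, 0.41 and 0.703 CPM at day 22, with the whole transcript matched by TDGF1P3. FOXD3, which stem cells share with early neural crest, had 2 counts in total at day 22 (ratio 2067, 95% counting interval 572 to 17070.1). SOX2, which neural progenitors keep, fell less, from 411, 559 and 406 CPM to 96, 109 and 180.0 CPM (log2 fold change -1.94 ± 0.28 (SE), adjusted p = 2.3e-07). KLF4, a factor of naive pluripotency, was the member not called, at 6.81, 8.8 and 3.83 CPM at day 2 and 6.01, 7.47 and 6.47 CPM at day 22 (adjusted p = 1).

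**Figure D1:**
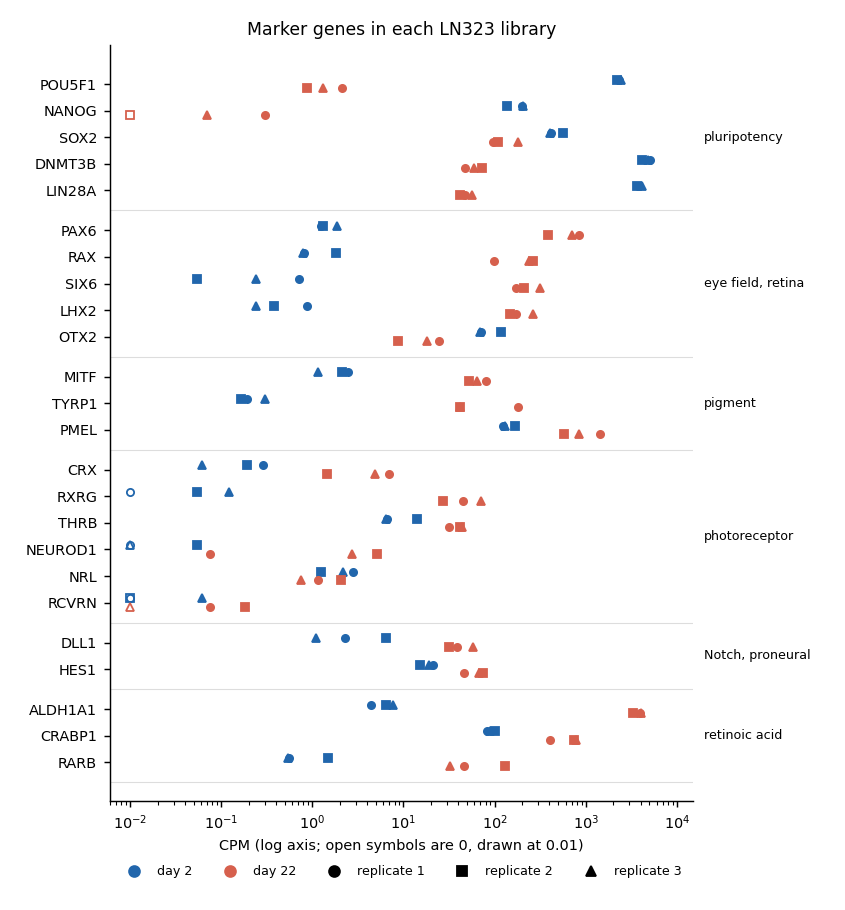
CPM on a log axis of marker genes in each of the 6 LN323 libraries, day 2 in blue and day 22 in red, with a symbol for each replicate and open symbols for 0. The groups do not overlap for the genes of pluripotency, eye field, pigment, and retinoic acid drawn, while NRL and RCVRN overlap.

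The embryonic stem cell miRNAs and let-7 miRNAs are known from opposite ends of the exit from the stem cell state. LIN28 proteins block the maturation of let-7, and let-7 in turn represses LIN28 and HMGA transcripts. Mature miRNAs were not measured, since they are too short for these libraries, and the values are those of the long host transcripts and of the hairpin loci. Their sequences are shown because families that share a seed share targets. In each sequence, taken from RefSeq (GRCh38.p14), the seed of bases 2 to 8 is in capitals.
hsa-miR-302a-3p: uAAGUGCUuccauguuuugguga
hsa-miR-302b-3p: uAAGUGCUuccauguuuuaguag
hsa-miR-302c-3p: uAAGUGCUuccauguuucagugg
hsa-miR-302d-3p: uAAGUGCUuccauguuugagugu
hsa-let-7a-5p: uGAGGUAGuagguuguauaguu
hsa-let-7c-5p: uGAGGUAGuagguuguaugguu
hsa-miR-100-5p: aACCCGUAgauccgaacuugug
hsa-miR-99a-5p: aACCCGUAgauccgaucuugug
hsa-miR-125b-5p: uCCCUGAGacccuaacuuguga
hsa-miR-204-5p: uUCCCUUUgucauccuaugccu
hsa-miR-211-5p: uUCCCUUUgucauccuucgccu

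The 4 miR-302 forms carry one seed, and their hairpins lie in MIR302CHG (chr4:112646476-112650051, minus strand, GRCh38). MIR302CHG itself read 0.53, 1.67 and 0.851 CPM at day 2 and 0, 0.364 and 0.0234 CPM at day 22 (log2 fold change -2.99 ± 0.93 (SE), adjusted p = 0.013), but 56.7% of its exonic bases overlap LARP7 on the other strand, and the call was lost without replicate 2 of day 2 (-2.58, adjusted p = 0.08), replicate 1 of day 22 (-2.39, adjusted p = 0.11), or replicate 3 of day 22 (-2.28, adjusted p = 0.14). The hairpin loci, chosen after their values were seen, share no exonic base with the other strand but lie within an exon of another transcript of their strand. MIR302A read 3.01, 6.15 and 3.95 CPM at day 2 and 0, 0 and 0 CPM at day 22 (at least 163-fold lower). MIR302C went from 7.77, 9.43 and 11 CPM to 0, 0.0911 and 0 CPM (log2 fold change -7.97 ± 0.91 (SE), adjusted p = 5.1e-10), and MIR302D from 2.38, 2.11 and 2.74 CPM to 0, 0 and 0 CPM (at least 90.2-fold lower). All 3 were at or near 0 in every day 22 library.

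LIN28A, which blocks let-7 maturation in stem cells, fell from 3716, 3669.6 and 4116 CPM to 47.2, 41.4 and 56.3 CPM (log2 fold change -6.33 ± 0.47 (SE), adjusted p = 6.5e-16). LIN28B fell less, from 259.6, 301 and 248 CPM to 104, 75.8 and 86.5 CPM (log2 fold change -1.60 ± 0.26 (SE), adjusted p = 2.1e-06). Of the 8 genes of the LIN28 and let-7 list, 6 were lower, among them HMGA1 (log2 fold change -2.71 ± 0.23) and TRIM71 (-3.62 ± 0.27), and HMGA2, a chromatin protein, was higher (0.78 ± 0.22, adjusted p = 0.0056), and no member was called higher without replicate 2 of day 2. The let-7 host MIR100HG (chr11:122028325-122556721, minus strand), which also holds miR-100 and miR-125b-1, rose from 0.193, 0.492 and 0.243 CPM to 137, 30 and 72.3 CPM (log2 fold change 7.98 ± 0.56 (SE), adjusted p = 6.1e-17), its day 22 levels being lowest in replicate 2. MIR99AHG (chr21:15928296-16646364, plus strand), the host of let-7c, miR-99a, and miR-125b-2, was at 0 in all day 2 libraries and at 3.96, 12.2 and 4.1 CPM at day 22 (at least 268-fold higher). The miR-125b-1 hairpin locus MIR125B1, also chosen after its values were seen, went from 0 to 0.723, 0.41 and 0.609 CPM (at least 20.7-fold higher).

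Hosts of pigment epithelium miRNAs rose too. TRPM3, an ion channel gene that holds miR-204, went from 17.2, 14.5 and 17.2 CPM to 192, 93.9 and 132 CPM (log2 fold change 3.07 ± 0.27 (SE), adjusted p = 2.0e-13). TRPM1, which holds miR-211 with the same seed, went from 0.0481, 0.164 and 0.122 CPM to 6.85, 5.74 and 4.9 CPM (log2 fold change 5.73 ± 0.67 (SE), adjusted p = 1.0e-09). Of 20 host transcripts in the list, 9 were higher and 6 lower (3 lower without replicate 1 of day 22), and LINC00461, a miR-9 host, was at or under the floor of 3 counts on both days. MIR9-1HG read 1.97, 1.56 and 1.16 CPM at day 2 and 0.266, 0.0911 and 0.281 CPM at day 22 (log2 fold change -2.92 ± 0.94 (SE), adjusted p = 0.016), a call lost without replicate 1 of day 2 (-2.75, adjusted p = 0.052), replicate 1 of day 22 (-2.96, adjusted p = 0.058), replicate 2 of day 22 (-2.44, adjusted p = 0.1), or replicate 3 of day 22 (-3.07, adjusted p = 0.055).

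SB431542 blocks the NODAL branch, and transcripts of that branch moved in both directions. NODAL read 6.26, 1.86 and 7.02 CPM at day 2 and 0.457, 0.273 and 0.281 CPM at day 22 (log2 fold change -4.00 ± 0.78 (SE), adjusted p = 5.4e-05), with 33.5% of its exonic bases shared with a gene on the other strand. The antagonist LEFTY1 went from 9.05, 2.82 and 8.45 CPM to 0.19, 0.182 and 0.469 CPM (log2 fold change -4.52 ± 0.83 (SE), adjusted p = 1.9e-05). GDF3, a NODAL-related ligand, went from 29.2, 9.84 and 22.5 CPM to 0, 0 and 0 CPM (at least 785-fold lower). Of the 16 genes of the NODAL and mesendoderm list, 5 were lower and 5 higher (31.25% each), against 22.4% and 22.6% of protein-coding genes. Without replicate 2 of day 2, 3 were higher. LEFTY2 was among the higher ones at 11.3, 5.77 and 9.18 CPM at day 2 and 20.7, 25.3 and 46.2 CPM at day 22. Its call was lost without replicate 2 of day 2 (1.68, adjusted p = 0.057) or replicate 3 of day 2 (1.49, adjusted p = 0.11). It was also lost with an expression filter (1.75, adjusted p = 0.092) and under DESeq2 (1.73, adjusted p = 0.086). LEFTY1 and LEFTY2 share most of their transcript, so reads may be split between them. TBXT, MIXL1, EOMES, SOX17, and FOXA2, markers of mesendoderm and endoderm, were under 2 CPM in every library, while GATA4 (0, 0.0547 and 0 CPM at day 2 and 1.22, 3.64 and 3.66 CPM at day 22) and GATA6 (log2 fold change 5.88 ± 0.97) rose from almost nothing.

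Among 8 genes of DNA methylation, 4 were lower and 2 higher, with 2 lower without replicate 3 of day 2 or replicate 1 of day 22 and 1 higher without replicate 2 of either day. The maintenance methyltransferase DNMT1 fell by 1.57 on the log2 scale, TET2, which oxidizes 5-methylcytosine, rose from 6.5, 11.1 and 4.62 CPM to 89.3, 90.1 and 83.2 CPM (log2 fold change 3.61 ± 0.24 (SE), adjusted p = 1.0e-17), and TET1 read 196, 185 and 158 CPM at day 2 and 164, 121 and 142 CPM at day 22 (adjusted p = 0.3).

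Eye field and neural retina transcription factors rose from near 0. In the list of 18 genes, 15 were higher and 2 lower, against 22.6% and 22.4% of protein-coding genes, with a median log2 fold change of 8.24. PAX6 read 1.25, 1.31 and 1.88 CPM at day 2 and 843, 384 and 715 CPM at day 22 (log2 fold change 8.75 ± 0.33 (SE), adjusted p = 7.4e-27), and 26.3% of its exonic bases overlap a gene on the other strand. RAX, required for the optic vesicle, went from 0.818, 1.8 and 0.79 CPM to 97.7, 262 and 236 CPM (log2 fold change 7.40 ± 0.50 (SE), adjusted p = 1.4e-17). SIX6 went from 0.722, 0.0547 and 0.243 CPM to 171, 213 and 316 CPM (log2 fold change 9.54 ± 0.42 (SE), adjusted p = 3.1e-24), and LHX2 from 0.866, 0.383 and 0.243 CPM to 172, 148 and 263 CPM (log2 fold change 8.54 ± 0.40 (SE), adjusted p = 4.2e-23). No day 22 library overlapped a day 2 library for these 4 genes.

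Several factors of position within the retina rose by similar amounts. TBX2 and TBX5, which mark dorsal retina, had log2 fold changes of 9.93 ± 0.47 and 9.45 ± 0.81. HMX1 read 0.289, 0.328 and 0.912 CPM at day 2 and 202, 249 and 453 CPM at day 22 (log2 fold change 9.32 ± 0.38 (SE), adjusted p = 1.1e-25), and VAX2, a ventral factor, stayed under 1 CPM (0, 0 and 0 CPM at day 2 and 0.228, 0.592 and 0.82 CPM at day 22; at least 22-fold higher). OTX2, expressed both in stem cells and in the optic vesicle, fell from 71.1, 119 and 69.2 CPM to 24.7, 8.7 and 18 CPM (log2 fold change -2.47 ± 0.39 (SE), adjusted p = 1.5e-06). SFRP1, a secreted WNT antagonist, fell by 1.34 on the log2 scale, and RAX2 stayed near 0.

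Of 14 optic stalk and forebrain factors, 9 were higher and 3 lower (1 lower without replicate 2 of day 2 or replicate 2 or 3 of day 22). PAX2, the optic stalk factor, went from 0, 0 and 0 CPM to 3.2, 6.06 and 4.55 CPM (at least 178-fold higher). FEZF2 went from 0.193, 0.0547 and 0 CPM to 20.9, 9.52 and 26.4 CPM (log2 fold change 7.73 ± 0.79 (SE), adjusted p = 1.8e-11). VAX1 had no count in any of the 6 libraries, which allows up to 3 counts over each group, or 0.0270 CPM at day 2 and 0.0266 CPM at day 22.

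Pigment cell genes rose in 11 of 16 cases and fell in 1. MITF, the regulator of pigment cells, went from 2.45, 2.13 and 1.16 CPM to 79.9, 52.4 and 64.8 CPM (log2 fold change 5.08 ± 0.38 (SE), adjusted p = 6.8e-16). Among melanosome genes, PMEL went from 125, 167 and 129 CPM to 1447, 582 and 846 CPM (log2 fold change 2.75 ± 0.32 (SE), adjusted p = 1.1e-09). TYRP1 and DCT, enzymes of melanin synthesis, read 180.4, 42.1 and 42 CPM and 216, 152 and 152 CPM at day 22 after under 0.5 CPM in all day 2 libraries (log2 fold changes 8.66 ± 0.79 and 9.33 ± 0.43). TYRP1 was highest in replicate 1 of day 22, and its log2 fold change without that library was 7.57. Genes of the mature pigment epithelium were split. BEST1, a chloride channel, and SERPINF1, which encodes a secreted factor, were higher (log2 fold changes 1.70 ± 0.50 and 2.15 ± 0.23). RPE65, the retinoid isomerase, read 0.0481, 0 and 0 CPM at day 2 and 0.0761, 0.182 and 0.0469 CPM at day 22 (adjusted p = 0.44), and TTR was found only in replicate 1 of day 22. LRAT, which esterifies retinol, fell from 50.5, 9.76 and 49.8 CPM to 0.761, 13.5 and 0.89 CPM (log2 fold change -3.94 ± 0.89 (SE), adjusted p = 4.4e-04), with its highest day 22 value in replicate 2, and by -5.29 on the log2 scale without that library.

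Of CRX, RCVRN, and NRL, the markers taken for the label of photoreceptor progenitors, CRX alone was called higher. Of 35 photoreceptor genes, 11 were higher (31.4%) and 4 lower (11.4%), against 22.6% and 22.4% of protein-coding genes. Of the 35, 16 stayed under 1 CPM on both days. CRX, the pan-photoreceptor factor, rose from 0.289, 0.191 and 0.0608 CPM to 6.93, 1.46 and 4.87 CPM (log2 fold change 4.61 ± 0.69 (SE), adjusted p = 4.4e-07). RXRG, the retinoid receptor of early cones, rose from 0, 0.0547 and 0.122 CPM to 44.7, 27 and 71 CPM (log2 fold change 9.93 ± 0.80 (SE), adjusted p = 2.1e-14). THRB, the thyroid receptor of cones, rose from 6.55, 14.2 and 6.38 CPM to 31.6, 41.6 and 44 CPM (log2 fold change 2.10 ± 0.39 (SE), adjusted p = 2.2e-05). These 3 genes had no overlap between days.

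Other fate factors rose to a few CPM and unevenly. NEUROD1 read 0, 0.0547 and 0 CPM at day 2 and 0.0761, 5.17 and 2.74 CPM at day 22 (ratio 170.1, 95% counting interval 46.7 to 1411), so replicate 1 stayed at the day 2 level. PRDM1, which holds precursors to the photoreceptor fate, went from 0.193, 0.437 and 0.122 CPM to 0.533, 3.32 and 1.27 CPM (log2 fold change 2.92 ± 0.72 (SE), adjusted p = 0.0013). NRL, the rod factor, read 2.79, 1.26 and 2.16 CPM at day 2 and 1.14, 2.07 and 0.75 CPM at day 22 (log2 fold change -0.71 ± 0.53, adjusted p = 0.45), and RCVRN, which encodes recoverin, read 0, 0 and 0.0608 CPM at day 2 and 0.0761, 0.182 and 0 CPM at day 22 (adjusted p = 0.59). Of the structural genes, ABCA4 (0.361, 0 and 0.122 CPM to 6.74, 12.6 and 6.54 CPM), RBP3 (0.144, 0 and 0 CPM to 1.22, 3.55 and 0.75 CPM), and IMPG2 (0.168, 0.109 and 0.182 CPM to 1.07, 2.19 and 1.69 CPM) rose, as did the phosphodiesterase subunit PDE6B (log2 fold change 2.19 ± 0.34). PDE6G, PRPH2, AIPL1, and GNGT2 fell from levels of under 5 CPM at day 2.

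Fate factors of the other early retinal neurons rose in 8 of 16 cases and fell in none. ATOH7, needed for ganglion cells, read 1.11, 0.219 and 0.73 CPM at day 2 and 1.6, 17.1 and 12.9 CPM at day 22 (log2 fold change 3.85 ± 0.67 (SE), adjusted p = 7.0e-06), and its target POU4F2 read 0.0481, 0 and 0 CPM at day 2 and 0.0761, 2.23 and 2.04 CPM at day 22. In both, replicate 1 of day 22 lay near the day 2 libraries. ISL1 and ONECUT1 were not called (adjusted p = 0.21 and 0.67). PROX1, of horizontal cells, went from 1.3, 1.09 and 0.486 CPM to 43.2, 26.6 and 28.6 CPM (log2 fold change 5.03 ± 0.40 (SE), adjusted p = 6.6e-15), and FOXN4 from 0.241, 0.957 and 0.243 CPM to 5.48, 8.83 and 15.8 CPM (log2 fold change 4.18 ± 0.49 (SE), adjusted p = 9.9e-10). TFAP2A and TFAP2B, shared by amacrine cells, neural crest, and surface ectoderm, had log2 fold changes of 6.66 ± 0.68 and 8.93 ± 1.08.

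The Notch ligand genes DLL1, DLL4, and JAG2 were higher, and JAG1 was lower. DLL1, a ligand repressed by Notch activity, rose from 2.26, 6.4 and 1.09 CPM to 39.1, 31.5 and 58.3 CPM (log2 fold change 3.59 ± 0.41 (SE), adjusted p = 4.5e-10; 4.82 without replicate 2 of day 2), and DLL4 from 0.481, 0.602 and 0.0608 CPM to 4.49, 11.4 and 11.8 CPM (log2 fold change 4.79 ± 0.64 (SE), adjusted p = 2.8e-08). Targets of Notch were split: HES1 rose from 21.2, 15.3 and 18.9 CPM to 46.7, 75.3 and 67.3 CPM (log2 fold change 1.79 ± 0.25 (SE), adjusted p = 6.0e-08) and HEY1 by 4.02 on the log2 scale, while NRARP was lower (adjusted p = 0.012) and HEY2 went from 27.5, 18.1 and 31.5 CPM to 0.761, 10.3 and 0.89 CPM (log2 fold change -3.72 ± 0.71 (SE), adjusted p = 4.0e-05; -4.60 without replicate 2 of day 22). HES5, the neural Notch target, rose to low levels, at 0, 0 and 0.182 CPM at day 2 and 0.989, 0.364 and 1.5 CPM at day 22 (log2 fold change 4.00 ± 0.87 (SE), adjusted p = 2.7e-04), and DLL3 was not called (adjusted p = 0.35). In all, 10 of 18 genes of this list were higher and 4 lower, with 2 lower without replicate 2 of day 2 or replicate 1 or 2 of day 22.

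Genes of differentiated neurons did not rise as a group. Of 22, 5 were higher (22.7%) and 9 lower (40.9%), against 22.6% and 22.4% of protein-coding genes, with a median log2 fold change of -0.50. MAP2 went from 10.7, 17.7 and 9.67 CPM to 141, 129 and 165 CPM (log2 fold change 3.42 ± 0.30 (SE), adjusted p = 1.4e-13) and NCAM1 from 10.5, 10.1 and 10.6 CPM to 115, 98.3 and 134 CPM (log2 fold change 3.46 ± 0.26 (SE), adjusted p = 6.1e-16). The growth cone gene GAP43 fell from 45.3, 45 and 39 CPM to 4.64, 15.3 and 9.19 CPM (log2 fold change -2.14 ± 0.38 (SE), adjusted p = 9.7e-06), and the neurofilament gene NEFM from 15.1, 12.9 and 13.1 CPM to 0.381, 3.94 and 1.83 CPM (log2 fold change -2.71 ± 0.69 (SE), adjusted p = 0.002). DCX, STMN2, and ELAVL4 were not called (adjusted p = 0.42, 0.17, and 1).

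Progenitor genes fared differently, with 11 of 18 higher and 3 lower. VIM, an intermediate filament of progenitors and mesenchyme, read 71, 178 and 60.9 CPM at day 2 and 2501, 647 and 1453 CPM at day 22 (log2 fold change 3.80 ± 0.43 (SE), adjusted p = 4.9e-10; 4.63 without replicate 2 of day 2). CDH2, or N-cadherin, went from 69.9, 96.4 and 72.6 CPM to 591, 397 and 535 CPM (log2 fold change 2.63 ± 0.25 (SE), adjusted p = 2.1e-12). NR2F1 and NR2F2, orphan receptors of the optic vesicle and brain, had log2 fold changes of 9.19 ± 0.39 and 10.20 ± 0.50. SOX11 was slightly higher (log2 fold change 0.63 ± 0.21 (SE), adjusted p = 0.019), a call lost without replicate 1 of day 2 (0.59, adjusted p = 0.087) or replicate 2 of day 2 (0.62, adjusted p = 0.051). FABP7, a fatty acid binding protein of radial glia, was lower (log2 fold change -1.21 ± 0.35 (SE), adjusted p = 0.0078), a call lost without replicate 1 of day 22 (-0.77, adjusted p = 0.2). SOX1 stayed near 0.

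Retinoic acid enters these cultures from the medium, is made from retinol by the RDH and ALDH1A enzymes, is broken down by CYP26 enzymes, and acts through RAR receptors. Of 16 genes of this pathway, 14 were higher and 1 lower, with a median log2 fold change of 2.95. ALDH1A1, the dehydrogenase of dorsal retina, rose from 4.43, 6.4 and 7.66 CPM to 3973, 3263 and 4035 CPM (log2 fold change 9.35 ± 0.58 (SE), adjusted p = 8.1e-19). ALDH1A3, of ventral retina, went from 2.74, 4.05 and 3.16 CPM to 45.6, 23.8 and 26.5 CPM (log2 fold change 3.23 ± 0.44 (SE), adjusted p = 5.3e-08), with 32.1% of its exonic bases shared with the other strand. RDH10, CRABP2, STRA6, and RARA had log2 fold changes between 1.92 and 3.18. CRABP1, a binding protein, went from 82.4, 101 and 89.2 CPM to 402, 752 and 787 CPM (log2 fold change 2.80 ± 0.28 (SE), adjusted p = 7.2e-12), and 45.9% of its exonic bases overlap a gene on the other strand. RARG was the member that fell (log2 fold change -1.02 ± 0.31 (SE), adjusted p = 0.011), a call lost without replicate 1 of day 22 (-0.68, adjusted p = 0.21) or replicate 3 of day 22 (-0.81, adjusted p = 0.13).

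The receptor gene RARB and the degrading enzyme gene CYP26A1 are known direct targets of retinoic acid receptors. Their promoters hold a DR5 element, a pair of half-sites in the same direction with 5 bases between them. The half-site searched was AGGTCA in its main form, besides GGGTCA with another first base, AGTTCA where the third differs, and GGTTCA with both. The element was found on either strand in 31 of 35116 RefSeq windows of 300 bases around a start site (0.0883%), 2 of them among the 26 windows of 13 genes of the list. Both genes were known to hold the element, so finding it in these 2 windows is no test, and its part in their rise was not tested. The 2 are shown in plus-strand order with the element in capitals, since both genes rose.
RARB, chr3:25428205-25428231: ggtagGGTTCACCGAAAGTTCActcgc
CYP26A1, chr10:93073798-93073824: aaagaTGAACTTTGGGTGAACTaattg

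The element starts 53 bases before the RARB start on the gene's strand and 90 bases before the CYP26A1 start, where it reads on the opposite strand (GRCh38.p14). RARB read 0.554, 1.48 and 0.547 CPM at day 2 and 46, 131 and 32.8 CPM at day 22 (log2 fold change 6.26 ± 0.47 (SE), adjusted p = 1.0e-15). CYP26A1 read 4.19, 15.5 and 3.59 CPM at day 2 and 34, 44.7 and 32.1 CPM at day 22 (log2 fold change 2.19 ± 0.49 (SE), adjusted p = 3.9e-04; 3.50 without replicate 2 of day 2), with 25.3% of its exonic bases shared with another gene on its strand. In both genes replicate 2 was the highest library of each day, and the days did not overlap.

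Replicate 2 of day 22 was also the highest of the 3 for 13 of the 16 pathway genes. CYP26B1, another degrading enzyme, read 0.144, 1.31 and 0.243 CPM at day 2 and 12.6, 352 and 21.3 CPM at day 22 (log2 fold change 7.34 ± 1.05 (SE), adjusted p = 1.3e-07), and its log2 fold change without that library was 5.58, adjusted p = 9.6e-07. DHRS3, a retinal reductase, read 30.9, 51.7 and 42.2 CPM at day 2 and 55.2, 412 and 62.4 CPM at day 22 (log2 fold change 1.78 ± 0.52 (SE), adjusted p = 0.0068), and without that library its log2 fold change was 0.78, adjusted p = 0.31. Its call was also lost with an expression filter (1.79, adjusted p = 0.06) and under DESeq2 (1.76, adjusted p = 0.051).

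The same library was highest for 11 of 14 genes of the hindbrain and spinal cord list, of which 11 were higher at day 22 and none lower. The median log2 fold change was 7.61, or 6.98 with genes at 0 set to their bound. HOXA5 read 4.57, 113 and 12.2 CPM at day 22 (log2 fold change 9.77 ± 1.48 (SE), adjusted p = 5.0e-07), and HOXB4 2.36, 26.3 and 6.51 CPM (log2 fold change 7.99 ± 1.28 (SE), adjusted p = 1.8e-06). Day 2 values of these genes were at or near 0, and without replicate 2 of day 22 the number of list members called higher was 11 again. The summed level of the list was 3.9, 3.83 and 3.34 CPM at day 2 and 133, 387 and 240.0 CPM at day 22. Its part in the retinoic acid result was not tested.

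**Figure D2:**
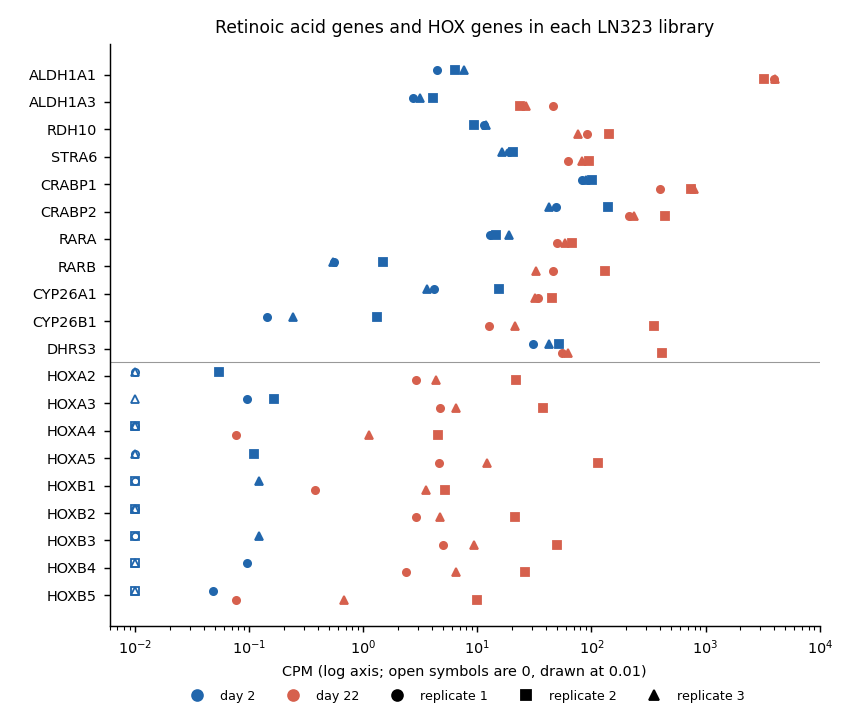
CPM on a log axis of retinoic acid genes (above the line) and HOX genes (below) in each LN323 library, day 2 in blue and day 22 in red, with open symbols for 0. Replicate 2 of day 22 (red squares) is the highest library for all 9 HOX genes drawn and for CYP26B1 and DHRS3.

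Of 21 genes of the WNT pathway, 13 were higher and 3 lower, the lower ones being AXIN2, SFRP1, and FZD7. DKK1, a secreted antagonist, read 0.385, 0.328 and 0.243 CPM at day 2 and 239, 30 and 258 CPM at day 22 (log2 fold change 8.72 ± 0.78 (SE), adjusted p = 3.0e-13), with replicate 2 the lowest at day 22. SFRP2, another antagonist, went from 394, 129 and 413 CPM to 1649, 2550.3 and 3439.8 CPM (log2 fold change 3.07 ± 0.45 (SE), adjusted p = 3.0e-07). LEF1, a factor that mediates WNT responses, rose from 0.385, 0.273 and 0.486 CPM to 32.1, 52.8 and 37 CPM (log2 fold change 6.68 ± 0.48 (SE), adjusted p = 2.5e-16), WNT5A from 3.85, 3.77 and 1.95 CPM to 125, 89.8 and 106 CPM (log2 fold change 5.06 ± 0.32 (SE), adjusted p = 1.2e-18), and the receptor gene FZD7 fell from 482, 465 and 636 CPM to 111, 114 and 131 CPM (log2 fold change -2.15 ± 0.20 (SE), adjusted p = 2.3e-12). FZD5, the receptor of the eye field, was not called (adjusted p = 0.62).

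CNTF in the medium acts through CNTFR, LIFR, and gp130 (IL6ST). CNTFR rose from 2.31, 2.08 and 1.34 CPM to 75.9, 35.7 and 80.1 CPM (log2 fold change 5.00 ± 0.32 (SE), adjusted p = 2.6e-18), and IL6ST from 12.9, 9.6 and 16.9 CPM to 267, 165 and 172 CPM (log2 fold change 3.94 ± 0.27 (SE), adjusted p = 3.2e-17). SOCS3, a STAT3 target and feedback inhibitor, rose from 35.2, 29.6 and 80.2 CPM to 142, 84.1 and 152 CPM (log2 fold change 1.42 ± 0.28 (SE), adjusted p = 5.6e-05). Of the 13 genes, 7 were higher and 2 lower, SOCS1 and PIM1.

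Replication and mitosis genes fell, and inhibitors of the cell cycle rose. Of 24 cell cycle genes, 22 were lower and none higher, with a median log2 fold change of -1.87. MCM5, of the replicative helicase, went from 763, 514 and 829.5 CPM to 43, 177 and 78.6 CPM (log2 fold change -2.97 ± 0.36 (SE), adjusted p = 2.7e-09), and CDC20, of the anaphase-promoting complex, from 326, 340.4 and 349.6 CPM to 46.7, 68.8 and 82.7 CPM (log2 fold change -2.38 ± 0.29 (SE), adjusted p = 2.0e-09). Replicate 2 was the highest day 22 library for 17 of the 24. MKI67 read 137, 169 and 130.2 CPM at day 2 and 58.1, 131 and 92.7 CPM at day 22 (adjusted p = 0.23). Among 13 inhibitors and D cyclins, 10 were higher and 1 lower: CDKN1A, or p21, went from 10.8, 7.77 and 7.66 CPM to 138, 48.4 and 111 CPM (log2 fold change 3.46 ± 0.31 (SE), adjusted p = 3.6e-13), CDKN1C from 21.4, 74.7 and 14.3 CPM to 140.4, 98 and 186 CPM (log2 fold change 1.86 ± 0.38 (SE), adjusted p = 9.4e-05; 3.08 without replicate 2 of day 2), and BTG2 from 3.61, 5.25 and 2.31 CPM to 73.1, 75.1 and 89.1 CPM (log2 fold change 4.41 ± 0.26 (SE), adjusted p = 1.1e-19), and cyclin CCND1 rose by 1.63 on the log2 scale.

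Glycolysis genes, high in stem cells, were lower for 16 of 22 members and higher for none (median -1.05). Under the alternatives, 11 to 18 were lower and 0 or 1 higher. LDHA and BSG, among the 16, lost their calls under several alternatives. LDHA lost it without replicate 1 or 2 of day 2 or replicate 2 or 3 of day 22. In these fits it read -0.76 to -0.40 (adjusted p = 0.10 to 0.45). BSG lost its call without replicate 1 or 2 of day 2 or any replicate of day 22. In these fits it read -0.47 to -0.31 (adjusted p = 0.096 to 0.34). HK1 fell from 602, 456 and 635 CPM to 134, 119.8 and 146 CPM (log2 fold change -2.08 ± 0.19 (SE), adjusted p = 8.3e-13), PGAM1 from 809.5, 1016 and 709.9 CPM to 119, 142 and 118 CPM (log2 fold change -2.75 ± 0.23 (SE), adjusted p = 3.2e-14), and the lactate transporter SLC16A1 from 953, 1118 and 1039 CPM to 242, 247 and 249.8 CPM (log2 fold change -2.08 ± 0.20 (SE), adjusted p = 2.7e-12). HK2 fell by 1.34 on the log2 scale, and SLC2A1, the main glucose transporter of these cells, was not called (adjusted p = 0.28).

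The cells' own laminin chain genes were compared per length with the authors' TPM values. LAMB2 had the highest mean among the 12 chains at day 22 and rose from 87.4 ± 11.9 TPM to 305 ± 30.8 TPM (SD, n = 3). LAMC1 came next at 123 ± 11.4 TPM to 207 ± 12.2 TPM, but was not called in the test on counts (log2 fold change 0.42 ± 0.17 (SE), adjusted p = 0.081). LAMB1 rose from 31.3 ± 3.61 TPM to 194 ± 16.9 TPM (log2 fold change 2.31 ± 0.28 (SE), adjusted p = 1.7e-09), and LAMA5 from 38.8 ± 14 TPM to 74.5 ± 1.58 TPM (log2 fold change 0.63 ± 0.20 (SE), adjusted p = 0.017), a call lost without replicate 1 of day 2 (0.44, adjusted p = 0.21), replicate 3 of day 2 (0.56, adjusted p = 0.093), or replicate 3 of day 22 (0.59, adjusted p = 0.053). LAMA3, LAMB2, and LAMC3 encode the chains of the LN323 that coated the wells, and LAMB2 was called higher. LAMA3 read 1.67, 1.35 and 1.75 TPM at day 2 and 1.09, 2.55 and 0.886 TPM at day 22 and was not called (log2 fold change -0.69 ± 0.39 (SE), adjusted p = 0.25). LAMC3, the gamma 3 chain, read 19.8, 19.1 and 19.5 TPM at day 2 and 1.78, 2.79 and 4.3 TPM at day 22 (log2 fold change -3.06 ± 0.36 (SE), adjusted p = 1.3e-09), without overlap between days. In counts, 6 chains were higher and 1 lower, with 4 to 7 higher and 1 or 2 lower under the alternatives. LAMB4 read 0.228, 7.38 and 1.08 CPM at day 22, with replicate 2 the highest.

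Of 10 receptor genes for laminin, 1 was higher (10%) and 2 lower (20%), against 22.6% and 22.4% of protein-coding genes. Without replicate 3 of day 2 or replicate 1 or 2 of day 22, 2 were higher. ITGA6, which pairs with beta 1 or beta 4 integrin, fell from 343, 355 and 325 CPM to 99, 159.8 and 105 CPM (log2 fold change -1.54 ± 0.23 (SE), adjusted p = 2.5e-07). ITGB4, the hemidesmosome partner, rose from 10.3, 14.7 and 10 CPM to 49.5, 83.5 and 76.6 CPM (log2 fold change 2.58 ± 0.33 (SE), adjusted p = 8.6e-09), and ITGB1 read 488, 393 and 462 CPM at day 2 and 598, 478 and 482 CPM at day 22 (adjusted p = 0.51). RPSA, a ribosomal protein also named as a laminin receptor, fell by 0.90 on the log2 scale.

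Epithelial junction genes were more often lower than higher. Of 15, 8 were lower and 4 higher (5 lower without replicate 1 of day 22). CLDN6, a stem cell claudin, went from 714, 683 and 731 CPM to 99, 195 and 122 CPM (log2 fold change -2.44 ± 0.31 (SE), adjusted p = 7.7e-09), EPCAM from 229, 170.5 and 249.7 CPM to 39, 107 and 52.3 CPM (log2 fold change -1.95 ± 0.38 (SE), adjusted p = 5.7e-05), and the splicing factor ESRP1 from 248, 216 and 233 CPM to 12.7, 55.1 and 18.6 CPM (log2 fold change -3.35 ± 0.47 (SE), adjusted p = 1.0e-07). CDH1 read 436, 541 and 398 CPM at day 2 and 117, 360.5 and 178 CPM at day 22 (log2 fold change -1.23 ± 0.42 (SE), adjusted p = 0.024), a call lost without replicate 1 of day 2 (-0.998, adjusted p = 0.12), replicate 1 of day 22 (-0.94, adjusted p = 0.21), or replicate 3 of day 22 (-1.15, adjusted p = 0.11). It was also lost without the lane block (-1.07, adjusted p = 0.13), under DESeq2 (-1.25, adjusted p = 0.071), and with an expression filter (-1.23, adjusted p = 0.1). CDH6 rose from 3.8, 13.2 and 3.47 CPM to 756, 771 and 824 CPM (log2 fold change 6.75 ± 0.52 (SE), adjusted p = 2.1e-15; 7.98 without replicate 2 of day 2) and CDH11 from 13.6, 15.3 and 10.1 CPM to 237, 421 and 331 CPM (log2 fold change 4.65 ± 0.26 (SE), adjusted p = 2.4e-20). Replicate 2 of day 22 was the highest of the 3 for CDH1, EPCAM, CLDN6, and ESRP1.

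Markers of other cell types were present at day 22 beside the retinal genes. Mesenchymal genes rose in 11 of 12 cases (median log2 fold change 5.13), and their summed level was 355 to 508 CPM at day 2 and 3729 to 4372 CPM at day 22. COL3A1 went from 1.2, 4.27 and 1.28 CPM to 876, 2257 and 1485 CPM (log2 fold change 9.57 ± 0.57 (SE), adjusted p = 2.2e-19), LUM from 0.0481, 0 and 0.0608 CPM to 35.8, 67.9 and 40 CPM (log2 fold change 10.28 ± 0.89 (SE), adjusted p = 9.8e-14), and PDGFRA from 4.69, 4.76 and 3.13 CPM to 141, 94.5 and 85.8 CPM (log2 fold change 4.69 ± 0.39 (SE), adjusted p = 2.1e-14), while COL1A1 was not called. Surface ectoderm genes were higher for 8 of 14 and lower for none (2 lower without replicate 2 of day 2), among them TP63 (0.0963, 0.273 and 0 CPM to 19.4, 38.1 and 25.4 CPM) and GATA3 (0, 0.164 and 0 CPM to 34.9, 26.9 and 28 CPM), and the epidermal keratin KRT14 stayed under 0.3 CPM. The sum of that list was 1093 to 1357 CPM at day 2 and 1487 to 2215 CPM at day 22.

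Of 11 neural crest and Schwann cell genes, 6 were higher, among them TWIST1 (0.0963, 0.164 and 0.243 CPM to 5.78, 30.5 and 14.7 CPM) and SNAI2 (0.241, 0.0547 and 1.09 CPM to 11.7, 21.2 and 16.5 CPM), and 3 lower, among them ERBB3 and FOXD3. Their sum was 237 to 271 CPM at day 2 and 75.5 to 219 CPM at day 22. Lens genes rose in 7 of 16 cases and fell in 2 (1 without replicate 3 of day 22): LIM2, a lens membrane protein, went from 0 to 8.52, 11.3 and 11.7 CPM (at least 400.3-fold higher) and CRYAA from 0, 0.109 and 0 CPM to 3.12, 6.22 and 5.34 CPM (log2 fold change 7.14 ± 0.85 (SE), adjusted p = 1.4e-09), with a sum of 23.4 to 26.8 CPM at day 2 and 56.8 to 144 CPM at day 22. Endoderm genes were higher for 5 of 12 (sum 6.43 to 11.4 CPM at day 2 and 51.3 to 68 CPM at day 22), with SOX17 and FOXA2 near 0. Of 11 endothelial and blood genes, 1 was higher (9.09%) and 3 lower (27.3%), against 22.6% and 22.4% of protein-coding genes. Their sum was 316 to 414 CPM at day 2 and 18.3 to 20.9 CPM at day 22. KDR fell from 328, 251 and 299.5 CPM to 5.9, 4.37 and 5.01 CPM, and PECAM1 stayed under 1 CPM. Bulk RNA does not show whether such cells were present, and the part of these genes in the other results was not tested.

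The 10 protein-coding genes of at least 5 CPM with the highest fitted log2 fold change had no or almost no day 2 counts. Fitted values of such genes depend on the prior count, so this order is not one of measured size, and the bounds of several lie below the fitted rises of genes outside the 10. GBP2 and GBP1, interferon-induced GTPases, read 19.4, 4.42 and 12.5 CPM and 9.13, 6.33 and 5.25 CPM at day 22 (at least 406-fold and at least 243-fold higher). The other 8 were LIM2, DAPP1 (at least 344-fold), HOXB2 (at least 401-fold), F5, which encodes coagulation factor V (at least 292-fold), GASK1B (0.0481, 0 and 0.122 CPM to 188, 49.9 and 96.2 CPM), MSX1, FAP (at least 249.8-fold), and SLN, a regulator of the calcium pump (at least 201-fold). MSX1, a homeobox gene of neural crest and ciliary margin, read 10.9, 34 and 20.5 CPM (ratio 2613, 95% counting interval 469 to 103254). Levels of HOXB2, MSX1, and FAP were highest in replicate 2, and those of GBP2, GASK1B, and SLN lowest.

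The 10 lowest fitted log2 fold changes, which depend on the prior count in the same way, were those of MT1H, C13orf42, GDF3, HTR3A, MYH2, CCL26, NANOGP8, SLC24A2, ITLN2, and NANOG. MT1H, a metallothionein, went from 137, 39.8 and 68 CPM to 0, 0 and 0 CPM (at least 3186-fold lower), and C13orf42 from 34, 24.4 and 35.8 CPM to 0, 0 and 0 CPM (at least 1180.5-fold lower). HTR3A, a serotonin-gated channel, went from 17.8, 21.4 and 16.2 CPM to 0, 0 and 0 CPM (at least 696-fold lower). All of the 10 except NANOG had no count at day 22, and the ratio of FOXD3 above exceeds the bound of NANOGP8. The day 2 counts of NANOGP8 may be reads of NANOG, as given above. Among other biotypes, LHX2-AS1 (at least 256-fold), MIR99AHG, and the lncRNA ENSG00000248540 (at least 224-fold) had the highest fitted values, and LNCPRESS1 (at least 1986-fold), ENSG00000248605 (at least 835-fold), and LINC01090 (at least 535-fold) the lowest. LHX2-AS1 is named as an antisense gene of LHX2, and its annotated exons share no base with another gene.

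The change on LN323 was then compared with the change on LN523 and on LN521 over the same days, as the difference of log2 fold changes. Against LN523, 0 of 44852 genes (0%) passed by edgeR, 949 had an unadjusted p under 0.05, and DESeq2 called 10. A fit of only the groups compared, with the lane block, called 31, and 12 were called without replicate 2 of day 2. Against LN521, 9 genes (0.0201%) passed by edgeR. A fit of only the groups compared, with the lane block, called 453. The number also rested on single LN323 libraries, from 0 without replicate 1 or 3 of day 22 or replicate 3 of day 2 to 167 without replicate 2 of day 2, and was 16 without replicate 1 of day 2 and 15 without replicate 2 of day 22. DESeq2 called 23, and 0 were called with an expression filter. Libraries of LN523 and LN521 were not left out in turn, so how far these numbers rest on them was not tested. At day 2, the TMM factors were 1.17, 1.06 and 0.953 on LN521 and 0.880, 0.914 and 0.857 on LN323. An unadjusted p under 0.05 was found for 2383 of the 44852 genes. With no difference at all, a share of up to about 0.05 of tested genes can pass this threshold. The share is smaller where many genes have few or no counts, as here. Neither this number nor the 949 against LN523 is therefore a count of differences.

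Of the 7 protein-coding genes among the 9, B3GALT2, PRPH, and DES had a more positive change on LN323. B3GALT2, a galactosyltransferase, went from 0, 0.0547 and 0 CPM to 14.8, 5.01 and 10.8 CPM on LN323 and from 2.28, 0.603 and 0.0526 CPM to 6.69, 4.6 and 6.09 CPM on LN521 (difference 6.28 ± 1.10 (SE), adjusted p = 0.016). The size of this difference depends on few LN323 counts at day 2, and the LN521 level at day 2 was highest in replicate 1. PRPH, a neuronal intermediate filament, rose on LN323 by 7.63 ± 0.71 and on LN521 by 3.26 ± 0.56 (difference 4.37 ± 0.88 (SE), adjusted p = 0.042), and 71.5% of its exonic bases overlap a gene on the other strand. DES, the muscle intermediate filament, went from 4.62, 3.66 and 3.89 CPM to 23.7, 6.92 and 16.7 CPM on LN323 and from 8.13, 36.2 and 4.13 CPM to 6.56, 3.01 and 3.21 CPM on LN521 (difference 3.76 ± 0.70 (SE), adjusted p = 0.018). Its LN521 value at day 2 was high in replicate 2.

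H1-3, H1-1, FGFBP3, and PLA2G3 had a more negative change on LN323. H1-3, a linker histone, went from 738, 727 and 668 CPM to 204, 259.9 and 303 CPM on LN323, while it read 341, 486 and 392 CPM and 408, 422 and 393 CPM on LN521 (difference -1.54 ± 0.30 (SE), adjusted p = 0.027). H1-1 fell to under 0.1 CPM on LN323 and read 5.17, 0.474 and 0.22 CPM at day 22 on LN521 (difference -6.04 ± 1.07 (SE), adjusted p = 0.016). The size of this difference depends on few LN323 counts at day 22, and replicate 1 held most of the LN521 level. FGFBP3, a carrier of fibroblast growth factors, changed by -1.41 ± 0.31 on LN323 and 0.81 ± 0.31 on LN521 (difference -2.21 ± 0.44 (SE), adjusted p = 0.034). PLA2G3, a secreted phospholipase, changed by -2.77 ± 0.34 and -0.44 ± 0.32 (difference -2.32 ± 0.46 (SE), adjusted p = 0.034). On LN523 the changes of these 7 genes had the same sign as on LN323, from -7.34 ± 0.82 for H1-1 to 5.99 ± 0.65 for PRPH.

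**Figure D3:**
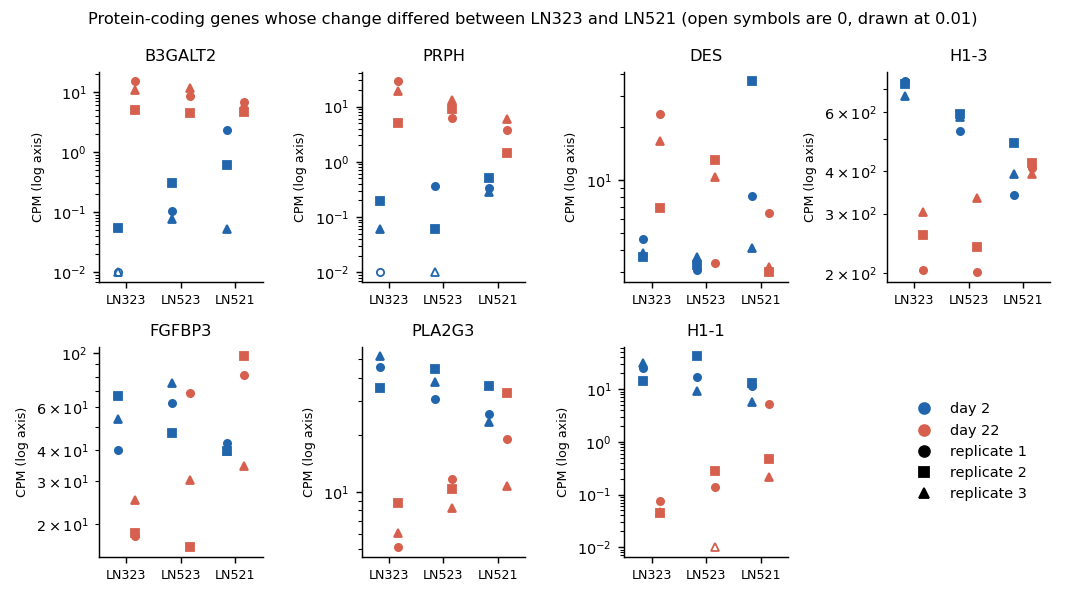
CPM on log axes of the 7 protein-coding genes whose change from day 2 (blue) to day 22 (red) differed between LN323 and LN521, in each of the 3 libraries of LN323, LN523, and LN521. H1-3 falls on LN323 and LN523 and overlaps between the days on LN521.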

How the data were processed

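Bulk RNA-seq libraries of H1 cells on 3 laminin coatings and 3 days were used, 3 per group, 27 in all. The authors trimmed reads with cutadapt, aligned them to GRCh38 (hg38, Ensembl release 79) with STAR 2.5.2b, counted genes with featureCounts 1.5.1, removed rRNA-biotype and mitochondrial genes, and deposited rounded counts without normalization. Deposited TPM values were used only to compare laminin chains per length. The libraries were made with a stranded kit, but the setting for strand in the counting is not given in the sources used here. Reads of overlapping genes on opposite strands may therefore not have been told apart.

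Counts were fitted with edgeR 4.0.16 in R 4.3.3 (TMM, quasi-likelihood test): all 27 libraries, 9 groups of laminin and day, lane as a block, as the study models lane. Genes with a sum over 1 count entered, and Benjamini-Hochberg adjustment covered all 44852. SE is the log2 fold change divided by the root of F. Deviations from group means of same-lane libraries correlated at -0.081, -0.227, and -0.066 over 16124 genes, so lanes did not pair the samples. A fold against a group at 0 used a floor of 3 counts over the group, and ratios with 1 to 3 counts have exact 95% intervals for counting error only. The scripts were tested on simulated data. Biotypes and positions came from GENCODE 44, which matched 43052 genes, exon overlaps from its exons, and copies from BLAST+ 2.17.0. DESeq2 1.42.0 was an alternative.

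The members and gene lists were chosen with earlier results of these data known. Genes were named by rule: the 10 largest rises and falls among protein-coding genes called in the same direction in all 3 lanes with a mean of 5 CPM on either day, 3 each for other biotypes, key genes of each list, and up to 5 differences per sign and laminin. List members may be named as examples. Some list members are not reported here.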

Additional observations from a re-analysis of the deposited data

Results flagged for a closer look

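The tests of the difference between laminins marked 9 genes whose change from day 2 to day 22 differed between LN323 and LN521, and none between LN323 and LN523. B3GALT2 (6.28), PRPH (4.37), and DES (3.76) had the more positive log2 change on LN323. H1-1 (-6.04), PLA2G3 (-2.32), FGFBP3 (-2.21), and H1-3 (-1.54) had the more negative one. The sizes for B3GALT2 and H1-1 depend on few LN323 counts, as given above. The lncRNA LNCPRESS1 (-9.58, adjusted p = 0.016) read 57.1, 25.8 and 77.4 CPM at day 2 and 0, 0 and 0 CPM at day 22 on LN323, and 11, 19.4 and 20.4 CPM at day 2 and 3.97, 0 and 0.165 CPM at day 22 on LN521. ENSG00000233393 (-8.15, adjusted p = 0.018) read 9, 4.18 and 8.15 CPM at day 2 and 0, 0 and 0 CPM at day 22 on LN323, and 2.26, 4.85 and 1.42 CPM at day 2 and 1.23, 0.142 and 0.0549 CPM at day 22 on LN521. Both were at 0 in all 3 LN323 libraries of day 22, so the size of their fitted difference depends on the prior count, and on LN521 replicate 1 of day 22 held most of what was left.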

How the results depend on the processing

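Of 165 called genes named, none reversed under the 13 alternatives, and 14 lost their call under at least 1. Of 2379 checks of named genes, 2307 kept direction and side of the threshold, 48 lost and 16 gained a call, and 8 reversed, all in genes not called. These were KLF4 (-0.077 without replicate 3 of day 2), FZD5 (0.17 without replicate 2 of day 2, 0.12 without replicate 1 of day 22), ONECUT1 (0.017 without replicate 1 of day 22), and ELAVL4 (-0.027 with only the groups compared and the replicate block, -0.10 with the 9 LN323 libraries, -0.18 without replicate 3 of day 2, -1.05 without replicate 2 of day 22). With a library left out, KLF4 ranged from -0.077 to 0.35, FZD5 from -0.47 to 0.17, ONECUT1 from -1.39 to 0.017, and ELAVL4 from -1.05 to 1.31. The count of 10192 genes ranged from 8426 to 9609 with a library left out, and was 10219 with RLE size factors, 11149 with an expression filter, 10055 without the replicate block, and 11984 with DESeq2. Against LN523, where 0 passed, 10 were called with DESeq2 and 31 with the replicate block fitted on only the groups compared. With an LN323 library left out, 0 to 12 were called, the 12 without replicate 2 of day 2. Against LN521, where 9 passed, 5 were called with RLE size factors, 0 with the filter, and 453 with the replicate block on only the groups compared. Without the block 8 were called, with DESeq2 23, and with an LN323 library left out 0 to 167. LN523 and LN521 libraries were not left out in turn. The causes were not tested. Of 754 list counts under alternatives, 709 stayed within 1.5 times. With 3 libraries per group and replicate 2 apart on both days, small changes and genes of few counts are the least certain.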

Other observations

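Some gene families outside the lists, picked with their values known, are described without a test of the family. Of all protein-coding genes, 22.6% were higher and 22.4% lower. All 8 metallothioneins, which bind zinc and copper, were lower at day 22 (median log2 fold change -6.44). MT2A went from 61.6, 36.2 and 39.6 CPM to 0.761, 4.46 and 1.17 CPM (log2 fold change -4.56 ± 0.49 (SE), adjusted p = 7.6e-11), and MT1G from 179, 70.5 and 104 CPM to 0.304, 0.0911 and 0 CPM (log2 fold change -9.96 ± 0.65 (SE), adjusted p = 4.3e-18). The summed level of the family was 247 to 566 CPM at day 2 and 2.17 to 7.92 CPM at day 22. Of 63 replication-dependent histone genes, which are transcribed in S phase and are kept here because the libraries were made from total RNA, 50 were lower and none higher (median -1.32). H1-5 went from 1605, 1342 and 1554 CPM to 212, 754 and 462 CPM (log2 fold change -1.81 ± 0.37 (SE), adjusted p = 1.4e-04). H2BC21 was not called (adjusted p = 0.57). The sum of the histone genes was 16832 to 19584 CPM at day 2 and 5802 to 11532 CPM at day 22, with replicate 2 the highest day 22 library for 42 of the 63.

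Of 19 WNT ligand genes, 15 were higher and none lower, with a median log2 fold change of 4.86, or 4.61 with genes at 0 set to their bound. WNT6 went from 0, 0.328 and 0.122 CPM to 46.6, 141 and 76.2 CPM (log2 fold change 9.37 ± 0.71 (SE), adjusted p = 1.3e-15) and WNT10A from 0.0963, 0.109 and 0 CPM to 24.7, 94.7 and 40.9 CPM (log2 fold change 9.43 ± 0.71 (SE), adjusted p = 9.1e-16). Among 10 BMP genes, 4 were higher and 6 not called, with BMP4, a ligand of dorsal retina and of other tissues, at 3.13, 5.47 and 3.4 CPM at day 2 and 108, 59.3 and 82.2 CPM at day 22 (log2 fold change 4.33 ± 0.34 (SE), adjusted p = 2.8e-15). Of 44 collagen genes, 22 were higher, 4 lower, and 18 not called. COL2A1, the collagen of vitreous and cartilage, went from 24, 33.4 and 30.3 CPM to 1911, 1569.6 and 2597 CPM (log2 fold change 6.06 ± 0.36 (SE), adjusted p = 1.9e-19), and COL4A1, of basement membranes, from 196, 185 and 216 CPM to 745, 255 and 640.2 CPM (log2 fold change 1.42 ± 0.26 (SE), adjusted p = 1.6e-05). Clustered protocadherins, cell surface proteins of neurons, were higher for 20 of 53, lower for 2, and not called for 31, with PCDHGC3 at 7.82, 7.46 and 5.44 CPM at day 2 and 33.3, 27.5 and 36.4 CPM at day 22 (log2 fold change 2.23 ± 0.26 (SE), adjusted p = 9.7e-10), though near-identical stretches of these genes make single members uncertain. Of 17 crystallin genes, 5 were higher, 3 lower, and 9 not called.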
